A study of Mus musculus with 27 samples.

Results

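The later step of neuronal reprogramming was followed in wild-type (WT) cultures by setting 3 libraries of day 4 against 3 libraries of day 2. They were chosen by the genotype and day in their labels and are 6 of the 27 RNA-seq libraries of the series. The cells were mouse embryonic fibroblasts (MEFs) from mid-gestation embryos of undetermined sex, with several embryos pooled to a dish and the cells used at their first passage. Cultures of Per1-/- (B6.129-Per1tm1Drw/J) and Per2-/- (B6.129-Per2tm1Drw/J) cells, set beside them below, were made in the same way. The cells of all groups were transduced with doxycycline-inducible lentiviruses for neuronal transcription factors, among them Brn2 (the gene Pou3f2) and Myt1l, and with the rtTA activator, and all the libraries of days 2 and 4 had received doxycycline in serum-free medium from day 0. The 3 libraries of a group are labelled biological replicates. The p-values rest on the spread between replicate cultures, estimated over the groups of all 27 libraries and not over the 6 WT libraries alone. The labels call every culture induced neurons, but RNA was taken from the whole dish, in which the study also found macrophages, fibroblasts, and other cells.

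POU3F2 is a POU-domain factor of neural progenitors and neurons, and MYT1L is a zinc finger protein that represses programs of other lineages in neurons. Fibroblasts that take this path leave the cell cycle, lose their contractile actin network, and switch on first early neuronal regulators and cytoskeleton genes and later the genes of excitable membranes and secretion. In RNA from a whole dish, which also holds cells that do not take this path, fewer cells of a type and less RNA per cell cannot be told apart.

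The 6 libraries held 16270681 to 24264097 fragments assigned to genes. Expression is given as FPKM, fragments scaled to the length of the gene and the depth of the library. A gene was called when limma's moderated test across all tested genes gave an adjusted p (Benjamini-Hochberg) of at most 0.05 and its log2 fold change, on the log2(FPKM + 0.1) scale, was at least 0.58 in size. The fibroblast collagen genes Col1a1 and Col1a2 were among the abundant transcripts on both days. Col1a1 was at 1647, 2078, and 1208 FPKM on day 2 and 1903, 2367, and 1484 FPKM on day 4. The 2 days overlapped, and these defining fibroblast transcripts were present in all 6 libraries.

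Of 14932 genes tested, 242 (1.62%) were called higher and 237 (1.59%) lower on day 4 than on day 2, 479 (3.21%) in all. The 3 libraries of one day lay beyond the 3 of the other for 476 of these 479 genes (3.19% of those tested), and for 14.7% (higher) and 17.5% (lower) of all tested genes. The first 2 days had called 3101 genes higher (20.8%) and 2944 lower (19.7%) and, once the FPKM of each library were brought to 1 sum, 5564 and 1253, as that scaling moved the median of all genes in the first step to 0.41. The later step gave 181 higher and 252 lower under the same scaling. With the replicate number as a block the later step gave 460 higher (3.08%) and 369 lower (2.47%). Without replicate 1, 2, or 3 of day 2, 98, 161, and 119 genes were called higher and 71, 167, and 81 lower. Without replicate 1, 2, or 3 of day 4 the counts were 114, 114, and 175 higher and 99, 89, and 178 lower. A core of 76 higher and 45 lower genes was called in all 6 of these fits, and 99 of the 479 in none of them.

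Neither Pou3f2 nor Myt1l, both transduced, was called between day 2 and day 4. Reads of the lentiviral and the endogenous coding sequence are counted together. Pou3f2 was at 228, 245, and 406 FPKM on day 2 and 121, 130.4, and 207 FPKM on day 4 (log2 fold change -0.93 ± 0.32 (SE), adjusted p = 0.0939), with no overlap and with replicate 3 the highest on both days, and it was called lower with the replicate block (adjusted p = 0.0122). Myt1l was at 0.771, 0.524, and 1.12 FPKM on day 2 and 1.11, 0.769, and 1.68 FPKM on day 4, and was not called. Among the study's neuronal readouts, Tubb3 (beta-III tubulin) was not called between the 2 days (log2 fold change 0.24), nor was the dendritic microtubule protein gene Map2 (0.82), whereas both had been called higher between days 0 and 2. The clock genes Per1 (0.10) and Per2 (0.13) were not called either.

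Many listed neuronal genes of the secretory, excitable, and axonal kind rose between day 2 and day 4. Of 12 tested genes of the granin and dense-core granule list, 8 were called higher and 0 lower, with a median log2 fold change of 1.79 against -0.01 over all tested genes. Of 31 genes of neuronal channels, receptors, adhesion molecules, and splicing regulators, 11 were called higher and 0 lower (median 0.75). The neuronal cytoskeleton list gave 8 of 32 higher and 0 lower (median 0.39), and the synaptic vesicle list 3 of 22 higher and 0 lower (median 0.39). Over all tested genes 1.62% were called higher. Summed FPKM overlapped between days 2 and 4 in the granin (187 to 233 and 194 to 229), cytoskeleton (1081 to 1252 and 1105 to 1348.5), and vesicle lists (126 to 162 and 146 to 196). The channel and receptor sums did not overlap (83.1 to 102 and 109 to 140). With 1 library left out at a time, the granin count stayed between 6 and 9, that of channels and receptors between 8 and 11, and that of the cytoskeleton list between 6 and 7. The first count was 3 with a pseudocount of 0.01 and 5 with a minimum mean of 1 FPKM, which gave 6 channel and receptor genes. With the replicate block the vesicle list gave 5 higher and 1 lower.

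Scg2 (secretogranin II, a granin that is cut into neuropeptides; ENSMUSG00000050711, chromosome 1 from 79434669 to 79440120) was at 0.246, 0.322, and 0.286 FPKM in the 3 day 2 libraries and 3.51, 4.61, and 4.61 FPKM on day 4 (log2 fold change 3.49 ± 0.44 (SE), adjusted p = 0.000122). The 2 days did not overlap, and the first step had not been called (log2 fold change 0.91). Chgb (chromogranin B, which helps to form the granule core; ENSMUSG00000027350, chromosome 2 from 132781278 to 132795079) went from 2.35, 2.94, and 4.06 FPKM to 13.6, 12.9, and 22.6 FPKM (log2 fold change 2.34 ± 0.36 (SE), adjusted p = 0.000896), and Scg3, which sorts granins into granules, from 0.846, 0.866, and 1.03 FPKM to 4.42, 4.69, and 6.89 FPKM (2.40). In both, each day 4 library lay above each day 2 library. The processing enzyme gene Pcsk2 (2.19) and the granule genes Chga (1.79), Resp18 (2.06), Vgf (1.78), and Scg5 (1.04) rose as well. Cpe (-0.32) and Ptprn (-0.30), a carboxypeptidase and a granule membrane protein, had negative values and were not called. The calls of Scg2, Chgb, Scg3, Pcsk2, Chga, and Vgf held in each of the 6 fits that left out 1 library. Resp18 and Scg5 lost their calls without replicate 1 or 2 of day 2 or replicate 1, 2, or 3 of day 4 (adjusted p = 0.0514 to 0.18).

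Snap25, a SNARE protein of the presynaptic membrane (ENSMUSG00000027273, chromosome 2 from 136713453 to 136782428), was nearly the same in the 3 day 2 libraries, at 0.171, 0.17, and 0.182 FPKM, and reached 2.07, 1.81, and 2.64 FPKM on day 4 (log2 fold change 3.04 ± 0.28 (SE), adjusted p = 4.26e-06). Syn1 (synapsin I, which tethers vesicles; log2 fold change 1.16) and Napb (a SNARE-recycling protein; 1.05) were the other called members of the vesicle list. The AMPA receptor subunit gene Gria2 was at 0.293, 0.432, and 0.437 FPKM on day 2 and 1.62, 1.62, and 2.53 FPKM on day 4 (log2 fold change 2.04 ± 0.27 (SE), adjusted p = 0.000164). The NMDA receptor gene Grin1 (1.87), the nicotinic receptor gene Chrnb2 (1.61), the presynaptic adhesion gene Nrxn2 (2.20), and the potassium channel gene Kcnc1 (1.06) rose too. Of the RNA-binding proteins that set neuronal splicing, Elavl3 (2.43), Elavl4 (1.39), Celf3 (1.99), and Srrm4 (1.87) were called, while Nova1 (0.46), Nova2 (0.16), and Rbfox1 (-0.31) were not. The calls of Snap25, Syn1, Napb, Gria2, Grin1, Chrnb2, Nrxn2, Elavl3, Celf3, and Srrm4 held in each of the 6 fits that left out 1 library. Kcnc1 lost its call without any 1 of the 6 libraries (adjusted p = 0.0508 to 0.0945). Elavl4 lost its call without replicate 1 or 3 of day 2 or replicate 2 or 3 of day 4 (adjusted p = 0.0536 to 0.143).

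Mapt, the axonal microtubule protein tau (ENSMUSG00000018411, chromosome 11 from 104231390 to 104332090), was not called in the first step (log2 fold change 0.10) and rose in the second, from 0.231, 0.284, and 0.232 FPKM on day 2 to 1.51, 1.44, and 2.36 FPKM on day 4 (log2 fold change 2.39 ± 0.29 (SE), adjusted p = 8.15e-05). Ina (alpha-internexin, a neuronal intermediate filament, with 14.1% of its exonic bases shared with Nt5c2 on the opposite strand) went from 0.691, 1.55, and 1.25 FPKM to 5.27, 7.16, and 7.55 FPKM (log2 fold change 2.46 ± 0.39 (SE), adjusted p = 0.00123). The kinesin heavy chain gene Kif5a (2.08), the stathmins Stmn3 (2.24) and Stmn4 (4.16), the neurofilament gene Nefh (1.60), and the neuroblast gene Dcx (1.35) also rose. General tubulin and growth genes of the same list gave small values, such as 0.09 for Tuba1a, 0.06 for Map1b, and 0.13 for Gap43, none of them called. The calls of Mapt, Ina, Stmn3, Stmn4, and Kif5a held in each of the 6 fits that left out 1 library. Nefh lost its call without any 1 of the 6 libraries (adjusted p = 0.0744 to 0.196). Dcx lost its call without replicate 1 or 3 of day 2 or replicate 3 of day 4 (adjusted p = 0.0529 to 0.0735).

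**Figure D1:**
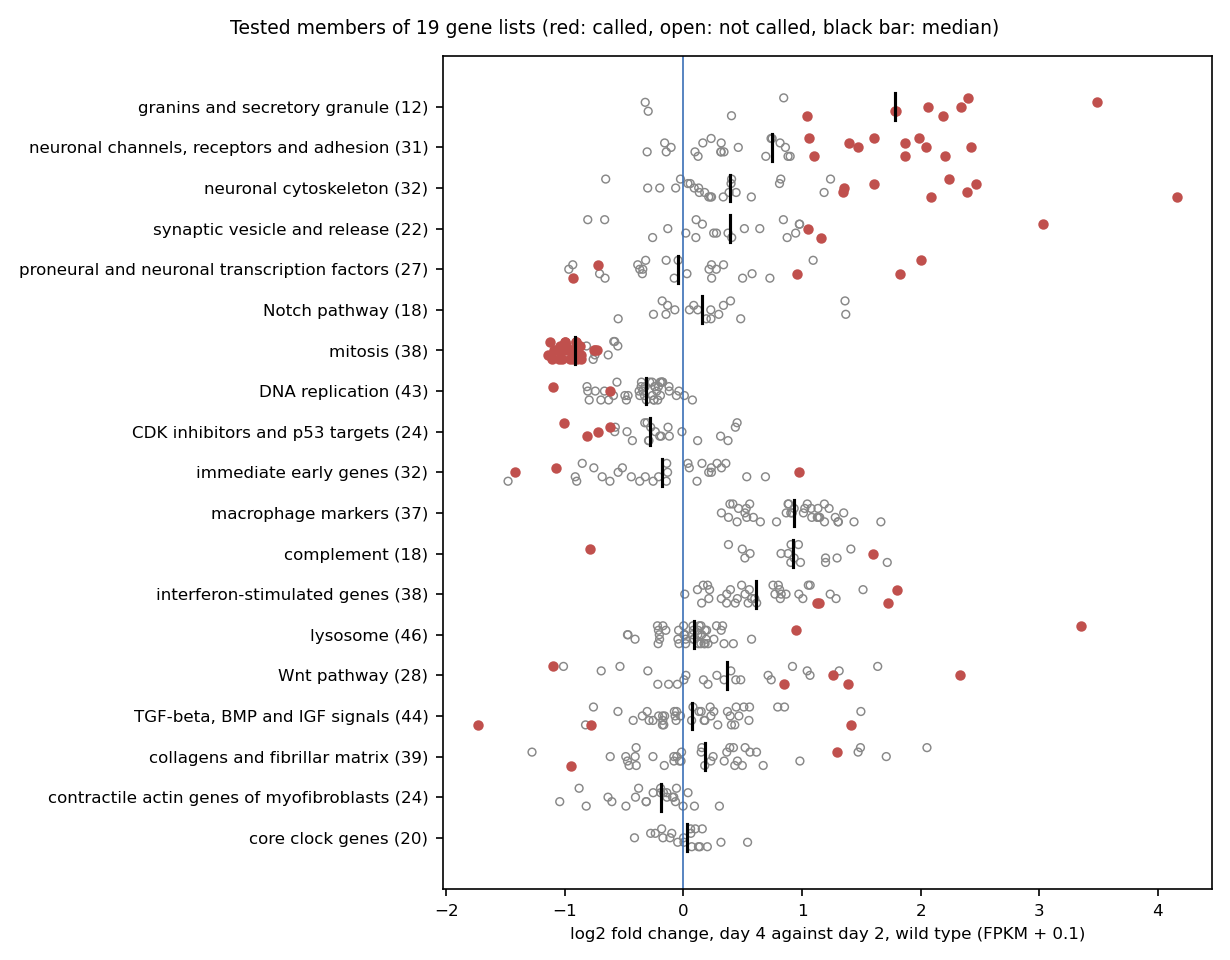
Log2 fold change of day 4 against day 2 in WT cultures for each tested member of 19 gene lists, with the number of tested members in brackets; red points are called, open points are not, and the black bar is the list's median. The granin list has its median at 1.79 and the mitosis list at -0.91, with all 38 mitosis genes to the left of 0.

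Transcription factors of the neuronal lineage split. Of 27 tested, 3 were called higher and 2 lower (1.62% and 1.59% of all tested genes were), and the median was -0.04. With the block 3 were higher and 5 lower. Myt1, the zinc finger relative of Myt1l, rose from 0.8, 1.03, and 1.25 FPKM to 3.74, 3.69, and 6.01 FPKM (log2 fold change 2.00 ± 0.31 (SE), adjusted p = 0.00086), and Scrt1 (a SNAIL-family repressor of neurons; 1.82) and Ebf1 (0.95) rose with it. Outside this list, Neurod6, a basic helix-loop-helix factor of differentiated neurons, went from 0.108, 0.0269, and 0.144 FPKM, which was 1 to 6 fragments, to 1.49, 1.73, and 2.63 FPKM (log2 fold change 3.43 ± 0.37 (SE), adjusted p = 2.55e-05). The 2 that fell were Hes6 (-0.93) and Sox4 (-0.72). They had risen by day 2, and are described with the genes that turned back. The calls of Myt1, Scrt1, Neurod6, Hes6, and Sox4 held in each of the 6 fits that left out 1 library. Ebf1 lost its call without replicate 1 of day 2 (adjusted p = 0.0691).

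RefSeq windows (GRCm38.p6, 250 bases before to 50 after the start site) were matched for 10352 of the tested gene symbols, 13237 windows in all. The palindromic E-box CAGCTG, the same on both strands, stood in 25.5% of the 110 windows of genes that rose in both steps, in 29.5% of the 61 windows of genes that rose and then fell, and in 15.6% of all windows. The 61 windows belong to 46 genes. Over the called genes as a whole its shares lay nearer that of all windows. They were 20.3% of the 222 windows of genes called higher and 19% of the 231 of genes called lower. Elavl3 (rose in both steps) and the first of the 2 windows of Hes6 (rose, then fell) each held 1 match, 43 and 171 bases before the start site. They are shown as examples of both classes, picked after the matches were known, 5′ to 3′ from 250 bases before to 30 bases after the start site, with the E-box in capitals.
Elavl3 promoter (chr9:22051994-22052273, minus strand): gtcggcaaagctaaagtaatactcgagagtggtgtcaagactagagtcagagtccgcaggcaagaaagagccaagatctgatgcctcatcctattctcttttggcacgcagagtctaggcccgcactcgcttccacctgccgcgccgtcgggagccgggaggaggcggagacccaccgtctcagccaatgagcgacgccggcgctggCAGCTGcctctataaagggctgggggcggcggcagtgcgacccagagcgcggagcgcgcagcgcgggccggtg
Hes6 promoter (chr1:91414009-91414288, minus strand): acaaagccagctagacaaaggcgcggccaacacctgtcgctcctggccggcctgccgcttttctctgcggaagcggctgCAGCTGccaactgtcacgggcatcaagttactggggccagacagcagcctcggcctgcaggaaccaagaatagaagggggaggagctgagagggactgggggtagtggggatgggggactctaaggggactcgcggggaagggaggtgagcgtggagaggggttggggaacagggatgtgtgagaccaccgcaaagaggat

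The genes of cell division fell. Of 38 tested mitosis genes 29 (76.3%, beside 1.59% of all tested genes) were called lower and 0 higher. All 38 had a negative log2 fold change (51.4% of all tested genes). For all 38 the 3 day 4 libraries lay below the 3 day 2 libraries (17.5% of all tested genes). Between days 0 and 2 the median of the same genes was -0.43, and 8 of the 38 had been called lower, beside 19.7% of all tested genes. The median of the later step was -0.91. With the replicate block 36 were called, and 18 without a filter on low values. The number of calls was 3 without replicate 1 of day 2, 18 without replicate 2, and 15 without replicate 3, and it was 12, 13, and 10 without replicates 1, 2, and 3 of day 4. The mean level of the list in single libraries, on the log2(FPKM + 0.1) scale, was 3.28, 3.10, and 3.02 on day 2 and 2.33, 2.31, and 2.05 on day 4, with no overlap.

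Cdc20, an activator of the anaphase-promoting complex (ENSMUSG00000006398, chromosome 4 from 118432901 to 118437352), was at 35.8, 25.5, and 26.7 FPKM on day 2 and 14.5, 14.8, and 10.9 FPKM on day 4 (log2 fold change -1.12 ± 0.25 (SE), adjusted p = 0.0154). The spindle kinase gene Aurka was at 11.9, 10.1, and 9.11 FPKM and 5.92, 4.53, and 3.65 FPKM (log2 fold change -1.14 ± 0.25 (SE), adjusted p = 0.0124), and the cytokinesis kinesin gene Kif23 at 5.74, 5.66, and 5.51 FPKM and 2.49, 3.01, and 2.19 FPKM (log2 fold change -1.12 ± 0.25 (SE), adjusted p = 0.0126). In all 3 the days did not overlap. Kif20a fell by 1.11 on the log2 scale, although 29.3% of its exonic bases are shared with Cdc23 on the opposite strand, which unstranded reads cannot separate. Cdk1 (-0.63), Foxm1 (-0.75), and Birc5 (-0.82) did not pass the test without the block. The call of Kif20a held in each of the 6 fits that left out 1 library. Cdc20 and Aurka lost their calls without replicate 1 of day 2 or replicate 3 of day 4 (adjusted p = 0.053 to 0.0901). Kif23 lost its call without replicate 1 of day 2 (adjusted p = 0.0518).

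DNA replication genes moved less. Of 43, 2 (4.65%, beside 1.59% of all tested genes) were called lower and 0 higher, with a median of -0.31. The replicate block gave 9 lower, beside 2.47% of all tested genes. For 25 the days did not overlap, all of them lower on day 4, as for 17.5% of all tested genes. The called pair encodes ribonucleotide reductase, which makes the DNA precursors. Rrm2, the subunit that is tied to S phase, was at 31.1, 23.8, and 25.7 FPKM on day 2 and 14.2, 13.6, and 9.96 FPKM on day 4 (log2 fold change -1.10 ± 0.28 (SE), adjusted p = 0.0301), without overlap. Rrm1 had a log2 fold change of -0.62 (adjusted p = 0.0468). Rrm2 lost its call without replicate 1 or 3 of day 2 or replicate 1, 2, or 3 of day 4 (adjusted p = 0.0595 to 0.121). Rrm1 lost its call without any 1 of the 6 libraries (adjusted p = 0.0835 to 0.143). Of 24 CDK inhibitor and p53 target genes, 4 (16.7%, beside 1.59% of all tested genes) were called lower and 0 higher. The 4 were Gadd45g, Eda2r (-0.82), Plk2 (-0.72), and Ccng1 (-0.62). Gadd45g lost its call without replicate 3 of day 2 or replicate 2 of day 4 (adjusted p = 0.0702 to 0.0771). Eda2r and Ccng1 lost their calls without replicate 1 or 3 of day 2 or replicate 1 or 2 of day 4 (adjusted p = 0.0595 to 0.147). Plk2 lost its call without replicate 1 of day 2 (adjusted p = 0.0546).

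The windows of the mitosis genes held the letters known from promoters of genes that peak late in the cell cycle. TTTGAA on either strand, the core of the cell cycle homology region, stood in 75.8% of the 33 windows of the list and in 11.9% of all windows. CCAAT on either strand, the letters that NF-Y binds, stood in 75.8% and 37.5%. Over the called genes as a whole the shares for TTTGAA were 28.6% of the windows of genes called lower and 12.6% of those called higher. The promoters of Cdc20 and Kif23 are shown, also picked after the matches were known, because each holds both motifs close to the start site (TTTGAA first base at 18 bases before it in Cdc20 and at base 3 after it in Kif23), with both motifs in capitals. Both cover the same stretch as above.
Cdc20 promoter (chr4:118437314-118437593, minus strand): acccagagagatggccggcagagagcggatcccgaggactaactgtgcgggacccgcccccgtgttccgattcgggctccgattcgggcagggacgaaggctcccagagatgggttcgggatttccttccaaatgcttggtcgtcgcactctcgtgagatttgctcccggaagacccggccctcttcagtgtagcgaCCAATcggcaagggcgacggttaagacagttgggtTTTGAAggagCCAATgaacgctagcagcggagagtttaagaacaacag
Kif23 promoter (chr9:61946770-61947049, minus strand): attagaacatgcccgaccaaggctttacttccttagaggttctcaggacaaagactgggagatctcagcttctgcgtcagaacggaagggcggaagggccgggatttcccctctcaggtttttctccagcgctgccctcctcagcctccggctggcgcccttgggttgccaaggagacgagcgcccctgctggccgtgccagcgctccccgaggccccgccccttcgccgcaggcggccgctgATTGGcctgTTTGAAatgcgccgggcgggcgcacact

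**Figure D2:**
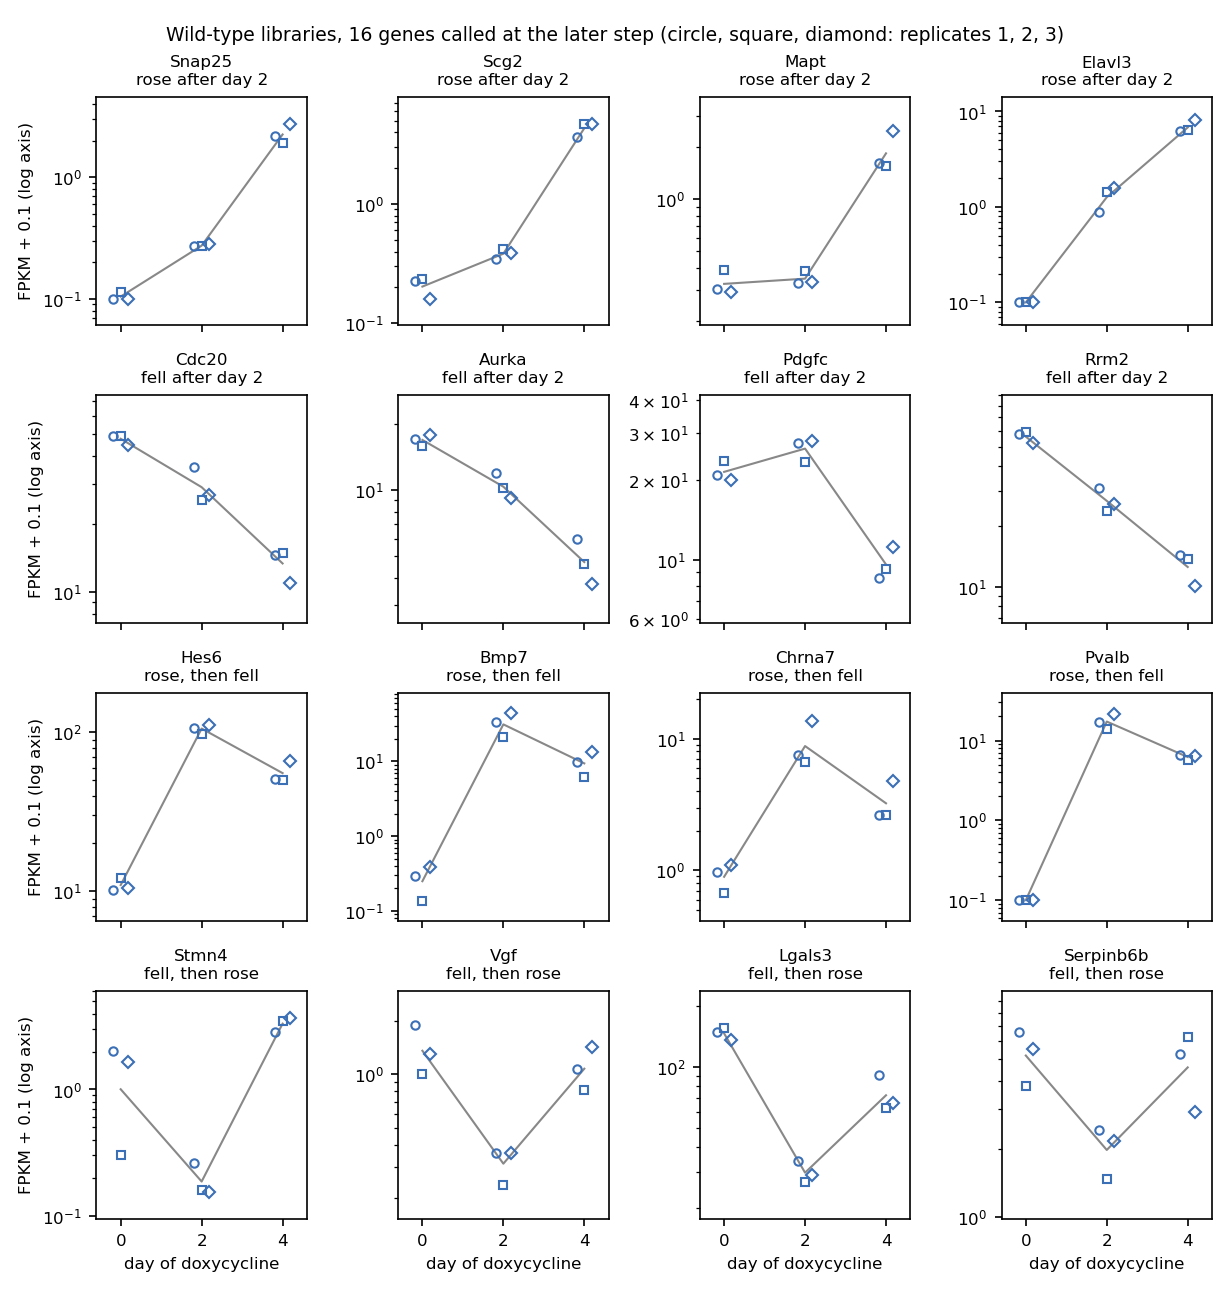
FPKM + 0.1 (log axis, a different range in each panel) of 16 genes in the 9 WT libraries against the day of doxycycline, with circles, squares, and diamonds for replicates 1, 2, and 3 and a grey line through the means of the log values. The rows hold genes that rose after day 2, genes that fell after day 2, genes that rose and then fell, and genes that fell and then rose.

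Read against the first step, the 479 genes fell into 6 classes. The 2 steps share the day 2 libraries, so that a day 2 value that is high or low by error enters both with opposite signs, and the classes are a description. In both steps 124 genes rose and 58 fell. The direction turned in 58 genes that rose and then fell and in 33 that fell and then rose. These are parts of the 237 genes called lower and the 242 called higher in the later step. Of all tested genes, the first step had called 20.8% higher and 19.7% lower. The remaining 85 higher and 121 lower genes were called in the later step and not in the first, which does not show that they had been still before. With the replicate block the classes held 242, 98, 95, 60, 158, and 176 genes in the same order. With 1 library left out the numbers changed as follows. Rising and then falling were 27, 54, and 12 genes without replicates 1, 2, and 3 of day 2 and 19, 17, and 67 without those of day 4, the last above the full count. Falling and then rising were 17, 19, 15, 15, 13, and 29 in the same order of libraries, rising in both steps 44, 72, 61, 67, 63, and 79, and falling in both steps 18, 42, 28, 31, 26, and 39. The genes called in the later step alone numbered 37, 70, 43, 32, 38, and 67 higher and 26, 71, 41, 49, 46, and 72 lower.

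**Figure D3:**
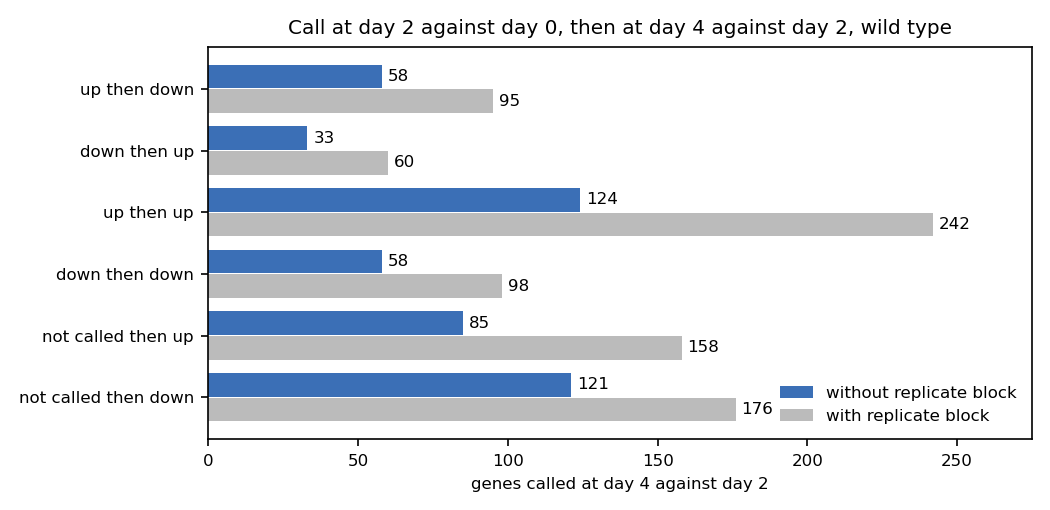
Number of genes called at day 4 against day 2 in WT cultures, split by the call at day 2 against day 0, without (blue) and with (grey) the replicate block. Rising in both steps is the most frequent class that was called in both steps, with 124 genes without the block and 242 with it.

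Among the 58 genes that rose and then fell, the median log2 fold change was 1.74 in the first step and -0.86 in the second, and a median of 70.4% of the FPKM gained by day 2 was gone on day 4. On day 4 32 of them were still called higher than on day 0 (22.9% of all tested genes were), and 26 were not called against day 0 in either direction. Hes6, a relative of the HES repressors that promotes neuronal differentiation (ENSMUSG00000067071, chromosome 1 from 91411483 to 91414038), was at 10.1, 12.1, and 10.4 FPKM on day 0, 107, 98.2, and 112 FPKM on day 2, and 50.9, 50.3, and 65.9 FPKM on day 4 (later step log2 fold change -0.93 ± 0.16 (SE), adjusted p = 0.00242). The day 2 and day 4 libraries did not overlap. Sox4 was at 98.9, 97.6, and 122 FPKM on day 2 and 59.5, 62.1, and 70.6 FPKM on day 4 (log2 fold change -0.72 ± 0.11 (SE), adjusted p = 0.000716), still above the 32.2, 29.2, and 32.8 FPKM of day 0. The lincRNA BC046251, at 0 FPKM in the 3 day 0 libraries, was at 1.61, 1.25, and 2.63 FPKM and then 0.366, 0.332, and 0.232 FPKM (log2 fold change -2.19 ± 0.36 (SE), adjusted p = 0.00162). The calls of Hes6, Sox4, and BC046251 held in each of the 6 fits that left out 1 library.

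Several genes of this class encode membrane receptors and secreted proteins. Bmp7, a bone morphogenetic protein (ENSMUSG00000008999, chromosome 2 from 172868012 to 172940321), stood at 0.196, 0.0361, and 0.285 FPKM, 33, 20.8, and 43.4 FPKM, and 9.76, 6.08, and 13.4 FPKM on the 3 days (later step log2 fold change -1.73 ± 0.39 (SE), adjusted p = 0.0147). Replicate 3 was the highest and replicate 2 the lowest on both later days, and the days were apart. Chrna7, the subunit of the homomeric neuronal nicotinic receptor, went from 7.39, 6.56, and 13.5 FPKM to 2.55, 2.55, and 4.69 FPKM (log2 fold change -1.44 ± 0.40 (SE), adjusted p = 0.0403), and Chrnb1, the beta subunit of the muscle receptor, from 10.8, 8.16, and 15.4 FPKM to 4.86, 3.87, and 5.16 FPKM (log2 fold change -1.25 ± 0.23 (SE), adjusted p = 0.00312). The day 4 values of Chrnb1 overlapped those of day 0, which were 4.53, 4.12, and 5.53 FPKM. The calcium buffer gene Pvalb, at 0 FPKM on day 0, was at 17, 14, and 21.3 FPKM and then 6.48, 5.57, and 6.34 FPKM (log2 fold change -1.48 ± 0.41 (SE), adjusted p = 0.0412). Col25a1 (a transmembrane collagen of neurons; -1.62), Sstr1 (a somatostatin receptor; -1.38), Nr4a3 (an orphan nuclear receptor of the immediate early class; -1.42), and Hapln4 (a perineuronal net link protein; -1.59) had the same course. The calls of Chrnb1, Col25a1, Sstr1, and Nr4a3 held in each of the 6 fits that left out 1 library. Bmp7 lost its call without replicate 1 or 3 of day 2 or replicate 2 of day 4 (adjusted p = 0.0607 to 0.0913). Chrna7 and Hapln4 lost their calls without replicate 1 or 3 of day 2 or replicate 1 or 2 of day 4 (adjusted p = 0.0901 to 0.209). Pvalb lost its call without any 1 of the 6 libraries (adjusted p = 0.0616 to 0.16).

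The 33 genes that fell and then rose had medians of -1.22 and 1.09, and a median of 68.7% of the FPKM lost by day 2 was regained. Against day 0, 25 of them were not called on day 4, 6 were still lower (20.9% of all tested genes were), and 2 were higher. Stmn4, a neuronal stathmin (ENSMUSG00000022044, chromosome 14 from 66344296 to 66361680), was at 1.92, 0.202, and 1.56 FPKM on day 0, 0.161, 0.0604, and 0.0537 FPKM on day 2, and 2.77, 3.4, and 3.58 FPKM on day 4 (later step log2 fold change 4.16 ± 0.77 (SE), adjusted p = 0.004). The day 0 libraries were spread widely, and the day 4 libraries lay above them all. Vgf, a granin-like precursor of neuropeptides, was at 1.8, 0.91, and 1.21 FPKM, 0.26, 0.136, and 0.26 FPKM, and 0.972, 0.71, and 1.33 FPKM (log2 fold change 1.78 ± 0.32 (SE), adjusted p = 0.00324). Lgals3 (galectin-3, which macrophages and fibroblasts both make) was at 149, 155, and 135 FPKM, 34.1, 26.8, and 28.9 FPKM, and 91.3, 62.1, and 66.2 FPKM (log2 fold change 1.27 ± 0.33 (SE), adjusted p = 0.0315), a return that stopped short of day 0. Acvrl1 (a type I receptor of the TGF-beta family; 1.10), Dusp8 (a MAP kinase phosphatase; 1.45), Uchl1 (a neuronal deubiquitinase; 0.89), Gsn (gelsolin, which severs actin; 0.85), and Ifi47 (an interferon-induced GTPase; 1.44) returned as well. The calls of Stmn4, Vgf, Acvrl1, and Dusp8 held in each of the 6 fits that left out 1 library. Lgals3, Uchl1, and Gsn lost their calls without any 1 of the 6 libraries (adjusted p = 0.0531 to 0.148). Ifi47 lost its call without replicate 1 or 3 of day 2 or replicate 1, 2, or 3 of day 4 (adjusted p = 0.0504 to 0.134).

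The 124 genes that rose in both steps had median log2 fold changes of 1.92 and 1.35 in the first and second step. Elavl3, at 0 FPKM in all 3 day 0 libraries (ENSMUSG00000003410, chromosome 9 from 22015005 to 22052023), was at 0.79, 1.34, and 1.47 FPKM on day 2 and 6.08, 6.23, and 7.95 FPKM on day 4 (log2 fold change 2.43 ± 0.27 (SE), adjusted p = 2.83e-05). Igfbpl1, a binding-protein relative expressed in young neurons, went from 0.297, 0.125, and 0.19 FPKM to 3.94, 3.28, and 6.18 FPKM (log2 fold change 3.90 ± 0.47 (SE), adjusted p = 5.75e-05), and the glycosyltransferase gene Mgat5b from 0.445, 0.39, and 0.482 FPKM to 2.76, 2.52, and 3.86 FPKM (log2 fold change 2.53 ± 0.27 (SE), adjusted p = 2.55e-05). The days were far apart in all 3. Hist3h2ba, a histone H2B gene, had 2.34, and the collagen VI chain gene Col6a6 had 2.72. The calls of Elavl3, Igfbpl1, Mgat5b, Hist3h2ba, and Col6a6 held in each of the 6 fits that left out 1 library.

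The 58 genes that fell in both steps had medians of -1.08 and -0.87. Ptgs2, the inducible cyclooxygenase of prostaglandin synthesis (ENSMUSG00000032487, chromosome 1 from 150100031 to 150108227), was at 146, 112, and 97.8 FPKM on day 0, 4.11, 2.86, and 1.63 FPKM on day 2, and 0.678, 0.481, and 0.691 FPKM on day 4 (later step log2 fold change -1.97 ± 0.39 (SE), adjusted p = 0.006). Col7a1, the anchoring fibril collagen, was at 20.1, 14.6, and 18.3 FPKM, 6.31, 4.62, and 5.26 FPKM, and 1.74, 1.43, and 2.19 FPKM (log2 fold change -1.55 ± 0.35 (SE), adjusted p = 0.0156). Both fell on each step without overlap. Slc16a3, the lactate exporter of glycolytic cells, went from 5.1, 4.12, and 4.13 FPKM to 2.2, 1.87, and 1.22 FPKM in the later step (log2 fold change -1.32 ± 0.25 (SE), adjusted p = 0.00445), and Stbd1, a glycogen-binding protein, from 5.63, 4.95, and 4.7 FPKM to 2.39, 2.37, and 2.05 FPKM (log2 fold change -1.13 ± 0.17 (SE), adjusted p = 0.000896). The matrix genes Mamdc2 (-1.47) and Loxl2 (lysyl oxidase-like 2; -0.94) and the AP-1 gene Junb (-1.07) belonged here too. The calls of Slc16a3 and Stbd1 held in each of the 6 fits that left out 1 library. Ptgs2 and Mamdc2 lost their calls without replicate 1 of day 2 (adjusted p = 0.0513 to 0.0567). Col7a1 and Loxl2 lost their calls without replicate 1 or 3 of day 2 or replicate 1 or 2 of day 4 (adjusted p = 0.0536 to 0.142). Junb lost its call without replicate 1 or 2 of day 2 or replicate 2 or 3 of day 4 (adjusted p = 0.0863 to 0.122).

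Of the genes called in the later step alone, Clec3b (tetranectin, a plasminogen-binding protein of mesenchymal cells; ENSMUSG00000025784, chromosome 9 from 123150946 to 123157432) rose from 0.35, 1.11, and 0.726 FPKM, 9 to 19 fragments, to 15.4, 11.7, and 27.6 FPKM (log2 fold change 4.49 ± 1.08 (SE), adjusted p = 0.0216). Gng3, a neuronal G protein gamma subunit, rose from 0.454, 0.136, and 0.424 FPKM to 4.19, 3.62, and 4.64 FPKM (log2 fold change 3.37 ± 0.47 (SE), adjusted p = 0.000335), with 24.2% of its exonic bases shared with Bscl2 on the opposite strand. Pdgfc, a platelet-derived growth factor of mesenchymal cells (ENSMUSG00000028019, chromosome 3 from 81036416 to 81214040), fell from 27.5, 23.2, and 27.9 FPKM to 8.48, 9.13, and 11.1 FPKM (log2 fold change -1.45 ± 0.16 (SE), adjusted p = 3.66e-05) after a first step of 0.29. All 3 were without overlap. Chmp4c, an ESCRT-III subunit of the abscission checkpoint, fell from 3.25, 2.97, and 4.13 FPKM to 0.844, 0.886, and 1.14 FPKM (log2 fold change -1.75 ± 0.33 (SE), adjusted p = 0.00428). The calls of Gng3, Pdgfc, and Chmp4c held in each of the 6 fits that left out 1 library. Clec3b lost its call without replicate 1 or 3 of day 2 or replicate 1, 2, or 3 of day 4 (adjusted p = 0.0542 to 0.0986).

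Genes of macrophages, which the study counts among the cells of these dishes, had positive values throughout without passing the test. Of 45 listed markers 37 were tested, and all 37 had a positive log2 fold change, as did 48.6% of all tested genes (median 0.93). In 26 the days did not overlap, all higher on day 4, as in 14.7% of all tested genes. limma called 0, against 14 at an unadjusted p under 0.05 (19.9% of all tested genes were under it), 4 with the replicate block, 3 with voom weights, and 18 when the 6 libraries were fitted alone. The summed level of the list was 417 to 669.8 FPKM on day 2 and 808 to 1370 FPKM on day 4, and no marker was at 0 fragments in the 6 libraries together. Adgre1, which encodes F4/80, was at 6.66, 5.75, and 7.6 FPKM on day 2 and 20.7, 18.7, and 24.7 FPKM on day 4 (log2 fold change 1.67 ± 0.49 (SE), adjusted p = 0.0548; with the block adjusted p = 0.0225). Csf1r, the receptor of the macrophage growth factor, was at 14.8, 11.2, and 17 FPKM and 33.6, 26.6, and 37.9 FPKM (1.19, adjusted p = 0.208), and Tyrobp, a signalling adaptor, at 32.6, 30.6, and 39.4 FPKM and 79.3, 67.8, and 80.5 FPKM (1.15, adjusted p = 0.219). None of the 3 overlapped between days. The part of these cells in the other differences between the days was not tested.

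Interferon-stimulated genes, which cells of many kinds switch on in response to interferon, also had positive values throughout. All 38 tested had a positive log2 fold change (list median 0.61), as did 48.6% of all tested genes. For 26 the days did not overlap, all higher on day 4, as for 14.7% of all tested genes. Beside 1.62% and 1.59% of all tested genes, 4 of the list were called higher and 0 lower (7 and 0 with the block). They were Oas2 (a sensor of double-stranded RNA; 1.80), Ifit3 (an RNA-binding antiviral protein; 1.73), Rtp4 (1.14, with 13.9% of its exonic bases shared with Gm45338), and Parp14 (1.13). Ifit3 was at 3.74, 1.92, and 3.3 FPKM on day 2 and 7.73, 15.9, and 7.51 FPKM on day 4 (log2 fold change 1.73 ± 0.42 (SE), adjusted p = 0.0232). Replicate 2 of day 4 stood above the other 2 libraries of that day, and it was also the highest for Rtp4 and Oas2. Without replicate 2 of day 4 the list gave 2 calls, as it did without replicate 2 or 3 of day 2. The calls of Oas2 and Parp14 held in each of the 6 fits that left out 1 library. Ifit3 lost its call without replicate 2 or 3 of day 2 or replicate 2 of day 4 (adjusted p = 0.0589 to 0.135). Rtp4 lost its call without replicate 1, 2, or 3 of day 2 or replicate 1 or 2 of day 4 (adjusted p = 0.0923 to 0.256). TTTC followed after 2 bases by TTTC, on either strand, the core of the interferon-stimulated response element, stood in 45.7% of the 35 windows of this list and in 2.92% of all windows. The promoter of Ifit3 is shown over the same stretch as above, with its 2 matches, 156 and 122 bases before the start site, in capitals.
Ifit3 promoter (chr19:34583279-34583558, plus strand): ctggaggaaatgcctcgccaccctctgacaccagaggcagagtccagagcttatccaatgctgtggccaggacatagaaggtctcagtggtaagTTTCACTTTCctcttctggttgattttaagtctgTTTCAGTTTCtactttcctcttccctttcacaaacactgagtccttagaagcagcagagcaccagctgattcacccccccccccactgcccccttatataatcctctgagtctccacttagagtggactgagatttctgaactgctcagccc

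**Figure D4:**
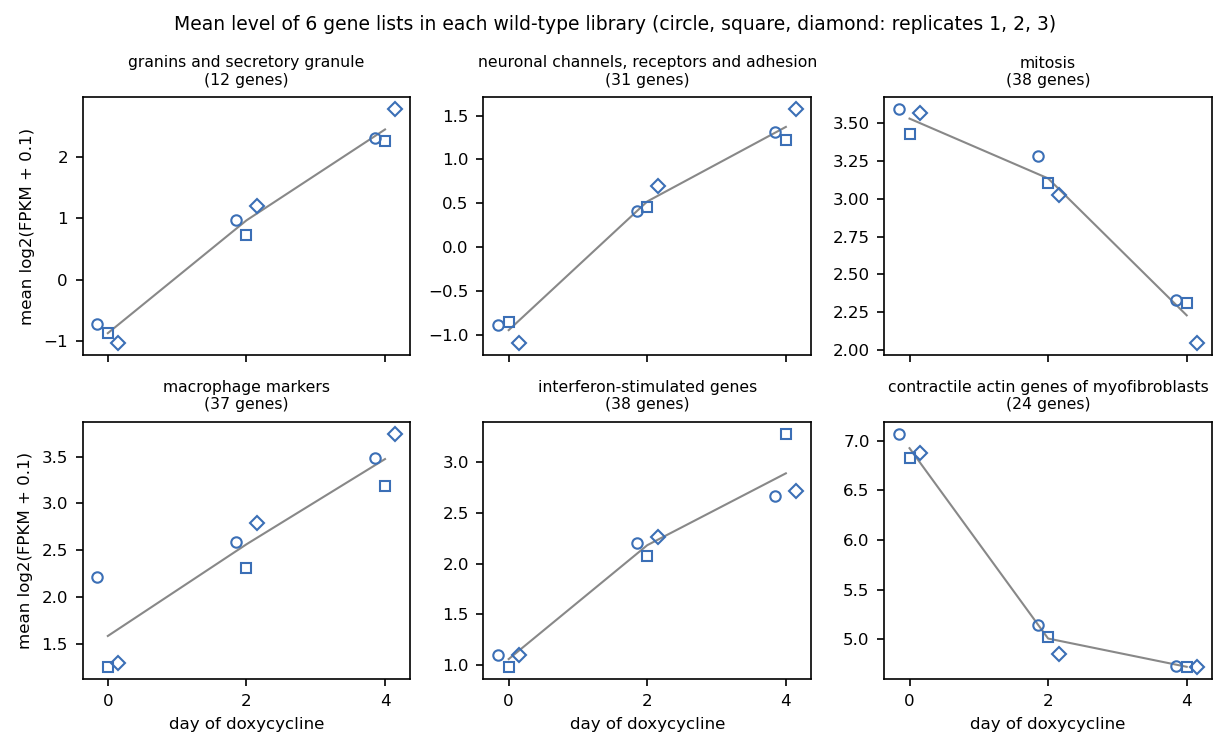
Mean log2(FPKM + 0.1) over the tested members of 6 gene lists in each WT library against the day of doxycycline, with circles, squares, and diamonds for replicates 1, 2, and 3 and a grey line through the means. Granin, channel, macrophage, and interferon-stimulated genes lie higher on day 4 than on day 2 in every library and the mitosis genes lie lower, whereas the contractile actin genes have most of their decline before day 2.

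Of 18 complement genes 17 were higher on day 4 by sign (list median 0.92), as were 48.6% of all tested genes. The 2 called genes, both inhibitors, went opposite ways. Each is 5.56% of the list, beside 1.62% called higher and 1.59% lower of all tested genes. Cd55, a surface inhibitor of the C3 convertase, rose from 7.12, 7.83, and 4.8 FPKM to 26.2, 19.5, and 15 FPKM (log2 fold change 1.60 ± 0.36 (SE), adjusted p = 0.0145), and Cd59a, which blocks the membrane attack complex, fell from 5.29, 4.66, and 5.46 FPKM to 3.52, 2.56, and 2.81 FPKM (log2 fold change -0.78 ± 0.20 (SE), adjusted p = 0.0287). With the block 6 were higher and 1 lower. Among 46 lysosomal genes, 2 (4.35%, beside 1.62% of all tested genes) were called higher and 0 lower, with a median of 0.09. They were Atp6v0d2, a subunit of the proton pump that osteoclasts use, at 0.171, 0.192, and 0.152 FPKM on day 2 and 4.22, 4.42, and 0.985 FPKM on day 4 (log2 fold change 3.35 ± 0.59 (SE), adjusted p = 0.00259), and the collagen-degrading protease gene Ctsk (0.95). Replicate 3 of day 4 was the lowest of its day for both and still above day 2. Lpl (lipoprotein lipase, in adipocytes and macrophages) rose by 1.75 on the log2 scale and Tlr2 (a receptor for bacterial lipopeptides) by 0.88. The calls of Atp6v0d2 and Lpl held in each of the 6 fits that left out 1 library. Cd55 lost its call without replicate 3 of day 2 or replicate 1 or 2 of day 4 (adjusted p = 0.0526 to 0.082). Cd59a lost its call without replicate 1 or 3 of day 2 or replicate 2 or 3 of day 4 (adjusted p = 0.0728 to 0.132). Ctsk lost its call without replicate 1, 2, or 3 of day 2 or replicate 1 or 2 of day 4 (adjusted p = 0.055 to 0.181). Tlr2 lost its call without any 1 of the 6 libraries (adjusted p = 0.0542 to 0.171).

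Lists of signals between cells held calls in both directions. The Wnt list gave 14.3% higher and 3.57% lower, and the TGF-beta, BMP, and IGF list 2.27% and 4.55%, with a median of 0.07. Over all tested genes 1.62% were called higher and 1.59% lower. Of 28 Wnt pathway genes 4 were called higher and 1 lower. The ligand genes Wnt11 (0.737, 1.08, and 0.983 FPKM on day 2 and 2.11, 2.59, and 3.1 FPKM on day 4; log2 fold change 1.38 ± 0.27 (SE), adjusted p = 0.00585) and Wnt2 (1.26), the potentiator Rspo3 (0.84), and the secreted antagonist Sfrp2 (2.33) rose, while another secreted antagonist, Frzb, fell by 1.10 on the log2 scale. Sfrp2 was at 41.3, 58.3, and 18.9 FPKM on day 2 and 219, 231, and 117 FPKM on day 4, with replicate 3 the lowest on both days and no overlap; 16.1% of its exonic bases are shared with Gm26771 on the opposite strand. Of 44 TGF-beta, BMP, and IGF genes, Igfbp4 (1.41) was called higher and Bmp7 and the SMAD corepressor Skil (-0.78) lower. With the block the Wnt list gave 5 higher and 2 lower and the other 3 and 4. The call of Wnt11 held in each of the 6 fits that left out 1 library. Wnt2 lost its call without any 1 of the 6 libraries (adjusted p = 0.0659 to 0.148). Rspo3, Sfrp2, Igfbp4, and Skil lost their calls without replicate 1 or 3 of day 2 or replicate 1 or 2 of day 4 (adjusted p = 0.052 to 0.193). Frzb lost its call without replicate 1, 2, or 3 of day 2 or replicate 1 or 2 of day 4 (adjusted p = 0.0518 to 0.135).

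The listed genes of the matrix and its enzymes gave 1 call in each direction per list without the block. These are 2.56% higher and 2.56% lower in the matrix list and 4.55% and 4.55% in the enzyme list. Over all tested genes the shares were 1.62% and 1.59%. Of 39 collagen and fibrillar matrix genes, Col5a3 (1.29) was called higher and Loxl2 lower (median 0.18), and of 22 metalloproteinase and inhibitor genes, Timp3 (0.61, with 21.3% of its exonic bases shared with Syn3 on the opposite strand) higher and the aggrecanase gene Adamts4 (-0.83) lower. With the block the first list gave 4 higher and 3 lower and the second 1 and 1. Matrix genes outside these lists were called too, among them Col6a6 higher and Col7a1, Col25a1, and Mamdc2 lower, as described above. Col5a3 lost its call without replicate 1 or 3 of day 2 or replicate 1, 2, or 3 of day 4 (adjusted p = 0.0738 to 0.186). Timp3 lost its call without replicate 1, 2, or 3 of day 2 or replicate 1 or 2 of day 4 (adjusted p = 0.0569 to 0.155). Adamts4 lost its call without replicate 3 of day 2 or replicate 1 or 2 of day 4 (adjusted p = 0.0539 to 0.0759). In the first step 22 of the 24 contractile actin genes had been called lower, beside 19.7% of all tested genes. In the second step the 24 genes gave 0 calls (median -0.19). The smallest p among them was that of Cald1, which binds actin filaments, at 89.6, 84.5, and 93 FPKM on day 2 and 61.4, 64.4, and 65 FPKM on day 4, with an adjusted p of 0.00253 and a log2 fold change of -0.48 that was under the minimum in size. Acta2 was at 508, 479.8, and 429 FPKM and 239.9, 287, and 276 FPKM, without overlap, and was called lower with the block (adjusted p = 0.0386) and not without it. Of 32 immediate early genes, Klf4 (0.98) was called higher and Nr4a3 and Junb lower, against 1 higher and 6 lower with the block. Klf4 lost its call without replicate 1 or 3 of day 2 (adjusted p = 0.0532 to 0.0626).

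The called members of 5 further lists were Ptgs2 lower and Tlr2 higher among 30 chemokine and cytokine genes, Slc16a3 lower among 33 glycolysis and hypoxia entries, the peroxiredoxin gene Prdx6 lower (-0.59) among 29 genes of oxidative stress defence, Lpl higher among 5 adipocyte genes, and Chrnb1 lower among 25 skeletal muscle genes. The calls are 3.33% of the first list in each direction and 3.03%, 3.45%, 20%, and 4% of the others in order. Over all tested genes 1.62% were called higher and 1.59% lower. With the block the same lists gave 5 higher and 1 lower, 0 and 2, 1 and 1, 3 and 0, and 0 and 1. The block called 3.08% of all tested genes higher and 2.47% lower. Prdx6 lost its call without replicate 1, 2, or 3 of day 2 or replicate 1 or 2 of day 4 (adjusted p = 0.052 to 0.159). The macrophage and contractile lists were among 15 lists without a call. Together these held 253 tested genes, of which limma called 0. At an unadjusted p under 0.05 in limma there were 56 (19.9% of all tested genes were under it). The block called 18 and voom weights 11. They include the Notch pathway (18 tested, median 0.16), fibroblast transcription factors and markers (25, 0.22), sterol synthesis (36, -0.05), ATF4 and unfolded protein genes (37, 0.12), core clock genes (20, 0.03), and the 13 mitochondrially encoded genes (-0.04). Schwann cell and oligodendrocyte genes (12 tested, median 0.58), astrocyte genes (8, 0.95), and pericyte genes (8, 0.29) had positive medians. Their summed levels were 76.6 to 81.4, 25.8 to 45.6, and 63.5 to 76.2 FPKM on day 2 and 99.2 to 128, 34.4 to 57, and 84.3 to 89.1 FPKM on day 4. The member with the smallest p was Jag2 (1.36) for Notch, Osr1 (0.95) for fibroblasts, Abcg1 (0.76) for sterols, Hsp90b1 (-0.41) for unfolded protein genes, Csnk1d (-0.17) for the clock, mt-Co2 (0.42) for the mitochondrial genome, Pmp22 (0.41) for Schwann cells, Slc1a3 (1.22) for astrocytes, and Anpep (0.95) for pericytes, and of these Osr1, Abcg1, Slc1a3, and Anpep were called with the block. Endothelial genes (7 tested of 18), epithelial genes (6 of 12), and erythroid genes (1 of 10, with 6 at 0 fragments in the 6 libraries) had few tested members.

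The same step was measured in separate libraries of the other cultures. Per1-/- and Per2-/- are the labels' genotypes, and the loss of the deleted exons was not checked in these gene-level values. By western blotting, the study reported the loss of PER1 protein in its Per1-/- MEFs and of PER2 protein in its Per2-/- MEFs. The libraries labelled Per1-/- called 206 genes higher (1.38%) and 158 lower (1.06%) on day 4 than on day 2, with Per1 means of 4.21 and 4.45 FPKM on those days beside 4.8 and 5.16 FPKM in WT. The libraries labelled Per2-/-, whose Per2 means of 2.83 and 2.83 FPKM on days 2 and 4 lay above those of WT (1.57 and 1.73 FPKM), gave 346 higher (2.32%) and 260 lower (1.74%). Of the 242 genes that rose in WT cultures, 239 had a positive value in Per1-/- cultures and 138 were called higher there, with a median of 1.12 against 1.29 in WT. In the libraries labelled Per2-/- 240 were positive and 174 called, with a median of 1.16. Of the 237 that fell, 237 and 236 were negative and 124 and 160 called lower, with medians of -0.74 and -0.78 against -0.87. Genes chosen for passing in WT lie further from 0 there by that choice, so that the smaller medians are no result. A test of the difference itself, the interaction of day and genotype, called 0 of 14932 genes between WT and Per1-/- cultures (182 or 1.22% at an unadjusted p under 0.05, and 0 with voom weights) and 1 (0.0067%) between WT and the libraries labelled Per2-/- (194 or 1.3% at an unadjusted p under 0.05, and 0 with voom weights). That gene was mt-Tv, the mitochondrial tRNA for valine, with 0, 0, and 0 fragments on day 2 and 2, 2, and 1 on day 4 in WT, and 5, 2, and 7 and then 0, 0, and 0 in the libraries labelled Per2-/-, which gives no usable fold.

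By group, the mitosis list gave 0 higher and 14 lower in Per1-/- cultures (median -0.81) and 0 and 28 in the libraries labelled Per2-/- (-0.83). The granin list gave 6 and 6 of 12 higher and 0 lower, and the channel and receptor list 10 and 10 of 31. The macrophage list had medians of 0.92 and 0.96 beside 0.93 in WT, and the interferon-stimulated list 0.57 and 1.03 beside 0.61. Elavl3 had log2 fold changes of 2.60 and 2.02, Scg2 2.77 and 3.36, Hes6 -0.95 and -1.11, and Bmp7 -1.40 and -2.14. Of the 58 genes that rose and then fell in WT cultures, 58 in Per1-/- cultures and 58 in the libraries labelled Per2-/- had a negative later step, and 37 and 46 were called lower. Of the 33 that fell and then rose, 30 and 31 had a positive one, and 13 and 17 were called.

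**Figure D5:**
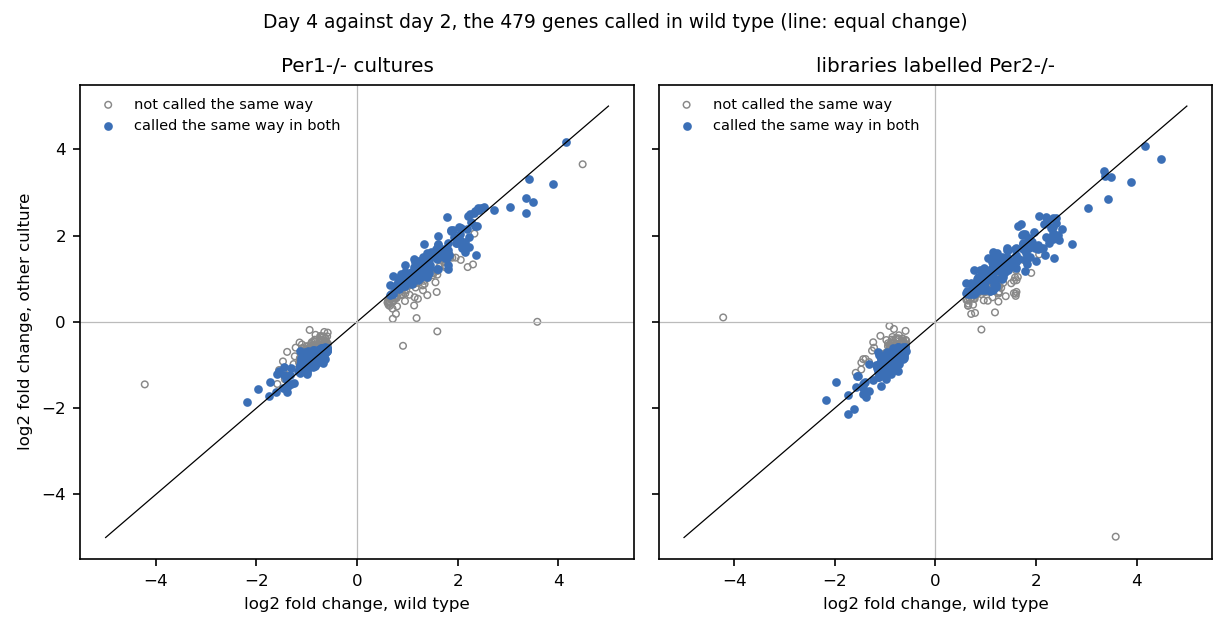
Log2 fold change of day 4 against day 2 in Per1-/- cultures (left) and in the libraries labelled Per2-/- (right) against that in WT cultures, for the 479 genes called in WT; filled points are called in the same direction in both, open points are not, and the line marks equal change. All but 3 points on the left and 3 on the right share the sign of WT.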

How the data were processed

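Poly(A) RNA of 27 cultures (3 genotypes, days 0, 2, and 4, 3 per group) was sequenced in unstranded paired-end libraries. Per the submitters' processing notes and the study's methods, the authors aligned reads with HISAT2 2.0.5 to mm10, counted them per Ensembl gene with featureCounts 1.5.0-p3, and deposited the values as FPKM. Groups were taken from the labels. The fragments behind each FPKM were recovered from the gene lengths (100% of values whole within 0.01).

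FPKM were tested as log2(FPKM + 0.1) with limma 3.58.1 in R 4.3.3 (eBayes with trend) for the 14932 of 54532 genes whose mean over all libraries reached 0.5 FPKM. The 27 libraries shared 1 estimate of the spread, without a block, and p-values were adjusted over all tested genes by the Benjamini-Hochberg method. An exact permutation test of 3 against 3 libraries cannot go below p = 0.1 and was not used. Deviations of same-numbered WT libraries of days 2 and 4 correlated at 0.127, 0.196, and 0.186 for replicates 1, 2, and 3, so the replicate number was taken as pairing them and fitted as a block in an alternative. Those of days 0 and 2 correlated at only 0.017, 0.046, and 0.037, and those of days 0 and 4 at -0.017, 0.052, and 0.061. The block covered all 3 days and all 3 genotypes. Block counts that use the first step, such as those of the classes, therefore also rest on the weak pairing with day 0. The other alternatives changed the pseudocount, the filter, the scaling, the libraries fitted, the weights (voom on fragments), and the minimum fold change, and left out single libraries. The script was tested on simulated data.

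Genes were named by rank of fold change among genes called without overlap between days, by rank within the 4 classes called in both steps, as up to 4 called members of each gene list, and as the smallest interaction p. Further list members were named after their values were seen. The members and lists were chosen with earlier results of these data known. Some items are not reported here.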

Additional observations from a re-analysis of the deposited data

Results flagged for a closer look

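In 1 gene the later step differed between genotypes by a test of the difference itself. For mt-Tv, a mitochondrial tRNA gene, the log2 fold change of day 4 against day 2 in WT cultures minus that in the libraries labelled Per2-/- was 8.57 on the log2(FPKM + 0.1) scale. The value rests on 2, 2, and 1 fragments in the WT libraries of day 4 and 5, 2, and 7 in the libraries labelled Per2-/- of day 2, with 0 in the 3 libraries of the other day in each. It is set by the pseudocount and is no measure of size. With voom weights on fragments, a pseudocount of 1, a minimum mean of 1 FPKM, or the replicate block, 0 genes were called in this comparison. Groups of 3 libraries were not searched for single libraries that stand apart.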

How the results depend on the processing

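With the replicate block the later step gave 460 higher and 369 lower genes, 158 higher ones of them in the later step alone, 98 genes that fell in both steps, 242 that rose in both, 60 that fell and then rose, 95 that rose and then fell, 7 interferon-stimulated and 4 macrophage genes called higher, and 0 genes in the interaction with the libraries labelled Per2-/-. The cause was not tested here or below. With the block in the 9 WT libraries alone these were 451 higher at the later step, 142 in it alone, 99, 256, 53, and 88 in the same classes, and 8 and 13 in the same lists. The 6 WT libraries alone gave 407 higher genes and 18 macrophage genes, and the 9 alone 195 genes rising in both steps and 8 macrophage genes. With voom weights 206 genes rose in both steps, 91 rose and then fell, 3 macrophage genes were called, and the interaction with the libraries labelled Per2-/- gave 0.

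Without a filter on low values the later step gave 149 lower genes, 139 higher and 63 lower in it alone, 35 that fell in both steps, 19 that fell and then rose, 18 mitosis genes, and interactions of 4 (Per1-/-) and 14 (label Per2-/-). A mean of at least 1 FPKM gave 5 granin and 6 channel genes and 0 for the label Per2-/- interaction. A pseudocount of 1 gave 146 higher in the later step alone, 4 macrophage genes, and 0 for that interaction, and 0.01 gave 70 that rose in both steps and 3 granin genes. Rescaling to a common sum gave 5564 and 1253 genes in the first step, 49 higher in the later step alone, 33 that fell in both steps, and 15 that fell and then rose. No minimum fold gave 4616 lower genes in the first step, 428 lower in the later step, and 127, 73, and 139 that fell in both steps, fell and then rose, and rose and then fell.

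With 1 WT library left out, the later step gave 98 to 241 higher and 71 to 229 lower genes, 32 to 95 and 26 to 116 in it alone, 18 to 60 that fell in both steps, 44 to 121 that rose in both, 13 to 36 that fell and then rose, and 12 to 67 that rose and then fell. The first step gave 2909 to 3103 higher and 2757 to 2974 lower, the interactions 0 to 0 (Per1-/-) and 0 to 1 (label Per2-/-). The lists gave 6 to 9 granin, 8 to 11 channel, 6 to 7 cytoskeleton, 2 to 4 interferon-stimulated, 0 to 0 macrophage, and 3 to 28 mitosis genes. Among 82 named called genes, 903 of 973 values under the other settings and 572 of 738 with a library left out stayed called, and 0 changed direction. Intervals for genes under 1 FPKM are limited by counting error. Of 109 named genes, the replicate block added the calls of Pou3f2, Adgre1, Abcg1, Osr1, Anpep, Flt4, and Slc1a3 and changed no other call.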

Other observations

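Called genes outside the lists of the report, picked after their values were seen, included Acp5, the tartrate-resistant acid phosphatase. It was at 0.685, 0.456, and 0.71 FPKM on day 2 and 5.41, 7.26, and 0.746 FPKM on day 4 (log2 fold change 2.20, limma adjusted p = 0.0278). Replicate 3 of day 4 stayed near the day 2 libraries, and the call was lost without replicate 1, 2, or 3 of day 2 or replicate 1 or 2 of day 4 (adjusted p = 0.073 to 0.164). Tnfrsf11a, which encodes the receptor RANK, rose from 1.62, 1.44, and 1.93 FPKM to 4.07, 3.68, and 2.88 FPKM (1.04), a call that was lost without replicate 1 of day 4 (adjusted p = 0.0555). Tnfrsf11b, which encodes the decoy receptor osteoprotegerin, fell from 4.18, 2.92, and 5.68 FPKM to 1.03, 1.13, and 1.9 FPKM (-1.58), and the call held in each of the 6 fits that left out 1 library.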
